A study of Homo sapiens with 18 samples.

Results

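The subunits of the mitochondrial respiratory chain and ATP synthase that are encoded in the nucleus were followed in PEO1 cells, a human ovarian cancer line, after an siRNA against p53 (sip53) or a control siRNA (siControl). Members were the rows of the deposited count table whose transcripts belong to protein-coding genes of the NDUFA, NDUFB, NDUFC, NDUFS, NDUFV, SDH, UQCR, CYC1, COX4 to COX8 and ATP5 subunit families, with assembly factors and pseudogenes left out. The rule gave 93 rows of 90 genes out of 57736 rows. It used no measured value, but the members were chosen with earlier results of these data known. By gene these were 38 of complex I, 4 of complex II, 10 of complex III, 19 of complex IV and 19 of complex V. Complex IV includes NDUFA4, first described in complex I and now known as a complex IV subunit, and its paralog NDUFA4L2. A filter on low counts was passed by 83 rows of 81 genes, and all counts of calls below are out of these 83.

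The 18 samples form 6 groups of 3. Each siRNA arm was sampled untreated (0 h) and after 2 h and 8 h of 10 nM estradiol (E2), in phenol red-free medium with charcoal-stripped serum, a medium low in steroid hormones. Every group is the same single line, which the series title describes as carrying mutant p53, and the labels name 1 siRNA label per arm, so p53 loss and other effects of that siRNA cannot be told apart. The labels do not state that the 3 samples of a group were separate cultures, so the p-values reflect sample-to-sample spread that may be technical only. RNA was counted from the 3′ ends of transcripts.

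The respiratory chain passes electrons from NADH (complex I) and succinate (complex II) through complex III to complex IV, which reduces oxygen. Complexes I, III and IV pump protons across the inner mitochondrial membrane, and complex V, the ATP synthase, uses the gradient to make ATP. Complexes I, III, IV and V combine nuclear-encoded subunits with a few encoded in mitochondrial DNA, while complex II is wholly nuclear-encoded. The table had 0 rows for mitochondrially encoded genes, so the subunits made inside mitochondria were not analysed here.

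Total counts were 7542457 to 10132570 in siControl and 9225939 to 11307199 in sip53 libraries. The library siControl 0 h replicate 2 had the lowest depth and stood apart on the second principal component (-41.7, where the others lay between -28.1 and 36.1). Some of the values that rest on it are also given without it. Established p53 targets checked the labels: CDKN1A was lower in sip53 (log2 fold change -0.97 ± 0.10 SE) and so was RPS27L (-2.11 ± 0.14). All 13 ovarian and epithelial markers searched for were measured, and their summed level was 5880 to 6540 CPM in siControl and 7240 to 8590 CPM in sip53 libraries. The 4 keratins KRT7, KRT8, KRT18 and KRT19 held most of that sum and were among the 6 of 13 called higher, with 0 lower, while EPCAM (log2 0.04) and PAX8 (-0.09) were not called. Fibroblast markers summed to 108 to 127 CPM against 90.6 to 150 CPM, with COL1A2, COL3A1, DCN and LUM at 0 in every library. Most of that sum was THY1 (mean 110 CPM), which was not called (-0.02), while COL1A1 (mean 8.2 CPM) was called higher in sip53 (0.45 ± 0.15). Leukocyte markers summed to 9.21 to 19.9 against 14.1 to 17.1 CPM with PTPRC, CD3E and MS4A1 at 0, endothelial markers to 0 to 0.916 against 0.178 to 1.07 CPM, and muscle markers to 15.6 to 26.3 against 16.3 to 30.0 CPM with CKM and MYH2 at 0. Of the muscle markers MB (mean 16.7 CPM) was called higher in sip53 (0.40 ± 0.12), and TNNT2, TNNI3 and ACTN2 were not called. The leukocyte markers CD68 (0.04) and CD14 (0.26) were not called. The part that the higher keratin level or the higher depth of sip53 libraries has in the results below was not tested.

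The main comparison asked how the subunits differed between sip53 and siControl averaged over the 3 times. Of the 83 rows, 58 were higher in sip53 and 1 was lower at an adjusted p under 0.05 (edgeR quasi-likelihood test, Benjamini-Hochberg over all 15318 genes tested). Among all genes tested 16.1% were higher and 18.5% lower. The shift was small for each gene: the median log2 fold change of the 83 rows was 0.27, and 76 lay above 0, where the median of all genes was 0.01. By complex the values above 0 numbered 34 of 38 rows in I, 3 of 5 in II, 10 of 10 in III, 12 of 12 in IV and 17 of 18 in V. In bulk RNA, more transcript per cell and more cells of a kind cannot be told apart. In another fit, the trend of each library's log2 deviation from the gene's mean with transcript length and GC content was removed. In that fit 65 members were higher. The split over all genes moved from 2465 higher and 2830 lower to 2947 higher and 2156 lower, and the median of all genes was 0.044.

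The summed level of all 93 rows, with those that did not pass the filter, shows the same shift library by library. In siControl they took 1.43 ± 0.187% of the normalised counts at 0 h, 1.49 ± 0.151% at 2 h and 1.5 ± 0.0757% at 8 h (SD, n = 3 each). The 0 h libraries stood at 1.63, 1.26 and 1.4%, the lowest being replicate 2. In sip53 they took 1.73 ± 0.0569%, 1.82 ± 0.0208% and 1.74 ± 0.0306%. The lowest sip53 library (1.68%) lay above the highest siControl library (1.66%), so the 9 libraries of one arm did not overlap with the 9 of the other. The median log2 ratio of the 83 rows that passed the filter to their siControl mean ran from -0.177 to 0.184 in siControl libraries. In sip53 libraries it ran from 0.213 to 0.334. The lowest median was in siControl 0 h replicate 2, the shallowest library.

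**Figure D1:**
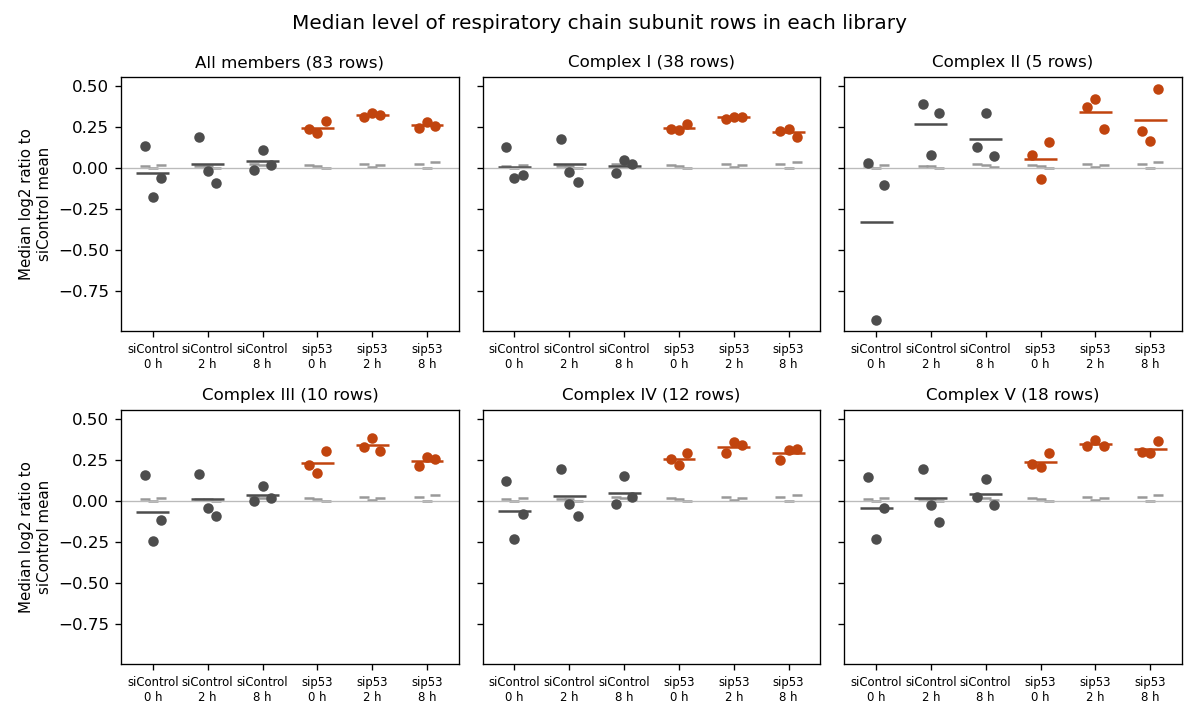
Each dot is the median over member rows of the log2 ratio of normalised CPM to the siControl mean in 1 library (grey, siControl; orange, sip53; coloured bars, group means; short grey dashes, the median of all genes tested in that library), for all 83 rows and for each complex. Over all rows the sip53 libraries lie at 0.213 to 0.334 and the siControl libraries at -0.177 to 0.184; complex II, with 5 rows, is the panel where the arms overlap most.

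At each time the direction was the same and the calls were fewer. At 0 h 23 members were higher and 0 lower, beside 3.98% of all genes higher and 5.14% lower, with a median log2 fold change of 0.28. At 2 h 30 were higher and 0 lower, beside 4.42% and 7.79% of all genes, with a median of 0.28. At 8 h 5 were higher and 0 lower, beside 2.81% and 6.14% of all genes, with a median of 0.24. No member was lower by DESeq2 either at any of the 3 times, beside 1034, 1367 and 1181 of 15318 genes. At an unadjusted p under 0.05 the edgeR test had 50, 46 and 40 members higher and 1, 0 and 1 lower. In either direction these were 61.4%, 55.4% and 49.4% of members, beside 25.4%, 26.8% and 24.5% of all genes. All 3 sip53 libraries lay above all 3 siControl libraries for 41 members at 0 h (49.4%, beside 12.6% of all genes), 51 at 2 h (61.4%, beside 15.1%) and 49 at 8 h (59.0%, beside 14.6%). The number of calls at a single time depended on single libraries: at 0 h it was 3 without siControl replicate 2, 9 without siControl replicate 3, 9 and 2 without sip53 replicates 2 and 3, and 46 without siControl replicate 1. At 2 h it fell to 5 and 8 without siControl replicates 2 and 3, and to 17, 8 and 10 without sip53 replicates 1, 2 and 3, and at 8 h to 1 to 3 without any 1 library. The share of all genes called higher moved as well when 1 library was left out. It ran from 0.866% to 6.7% at 0 h, from 1.43% to 5.02% at 2 h and from 0.988% to 2.62% at 8 h. The average over the times depended less on single libraries, with 52 to 65 members higher when 1 of the 18 libraries was left out and 56 without siControl 0 h replicate 2. All genes gave 13.3% to 17.1% higher in those fits. Averaged over 2 h and 8 h only, a choice made after seeing the data, 46 members were higher, beside 11% of all genes.

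Complex V, the ATP synthase, had the members with the smallest adjusted p. With the knockdown 15 of its 18 rows were higher and 1 lower, with a median log2 fold change of 0.28. ATP5MF, a small subunit of the membrane-embedded part (ENSG00000241468, chromosome 7, 99448475 to 99466331 on GRCh38), held 114, 100 and 99.8 CPM in the siControl libraries at 0 h, 122, 109 and 113 CPM at 2 h and 106, 101 and 108 CPM at 8 h. In sip53 it held 142, 155 and 153 CPM at 0 h, 142, 162 and 174 CPM at 2 h and 161, 162 and 161 CPM at 8 h. The lowest sip53 library was thus above the highest siControl library. Its log2 fold change was 0.54 ± 0.05 on average (adjusted p = 2.05e-07) and 0.52, 0.48 and 0.62 (SE 0.09 each) at 0, 2 and 8 h. It was called at all 3 times, and in each of them the call was kept in all 6 fits that left out 1 library.

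ATP5PO, the peripheral stalk subunit that links the catalytic head to the membrane part (ENSG00000241837, chromosome 21, 33903453 to 33915980), was the other member called at all 3 times. It held 171, 144 and 164 CPM in siControl at 0 h, 176, 158 and 135 CPM at 2 h and 160, 180 and 169 CPM at 8 h. In sip53 the values were 210, 204 and 220 CPM, 213, 223 and 224 CPM, and 205, 216 and 222 CPM. The arms did not overlap, and the log2 fold change was 0.41 ± 0.06 (adjusted p = 9.29e-06). At 8 h its call was kept in 1 of 6 fits without a library, and at 0 h in 4 of 6.

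All 4 peripheral stalk genes and all 5 small membrane subunits (ATP5ME, ATP5MF, ATP5MG, ATP5MD and ATP5MPL, the last 2 now named ATP5MK and ATP5MJ) were higher. Of the 5 genes of the catalytic F1 head 4 were higher, among them ATP5F1A and ATP5F1B, its alpha and beta subunits. ATP5F1B ranged from 282 to 443 CPM in siControl (median 386) and from 456 to 521 CPM in sip53 (median 470), without overlap, and its log2 fold change was 0.35 ± 0.06 (adjusted p = 9.44e-05). The F1 gene not called was ATP5F1E, the epsilon subunit, at 0.17 ± 0.07 (adjusted p = 0.0692). The c ring of the rotor is the same small protein made from 3 genes: ATP5MC2 (0.25 ± 0.05) and ATP5MC3 (0.21 ± 0.08) were higher, while ATP5MC1 was at 0.12 ± 0.06 (adjusted p = 0.159). The ATP5MC3 call (adjusted p = 0.0473) was kept in 5 of 18 fits that left out a library.

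ATP5MG, the member with the most counts, ranged from 791 to 1220 CPM in siControl (median 944) and from 1090 to 1190 CPM in sip53 (median 1160), and its arms overlapped. Its log2 fold change was 0.23 ± 0.06 (adjusted p = 0.00649). ATP5MGL, an intronless copy of it, was the only member called lower, at -0.52 ± 0.17 (adjusted p = 0.0189), with 5.22 to 14 CPM in siControl and 3.38 to 7.98 CPM in sip53. Reads shared with ATP5MG could be split between the copies by the authors' counting, so this value is uncertain. The call was lost without siControl 2 h replicate 3 (adjusted p = 0.0589), without siControl 8 h replicate 1 (0.0539), with the length and GC trend removed (0.0584) and over 2 h and 8 h only (0.108).

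**Figure D2:**
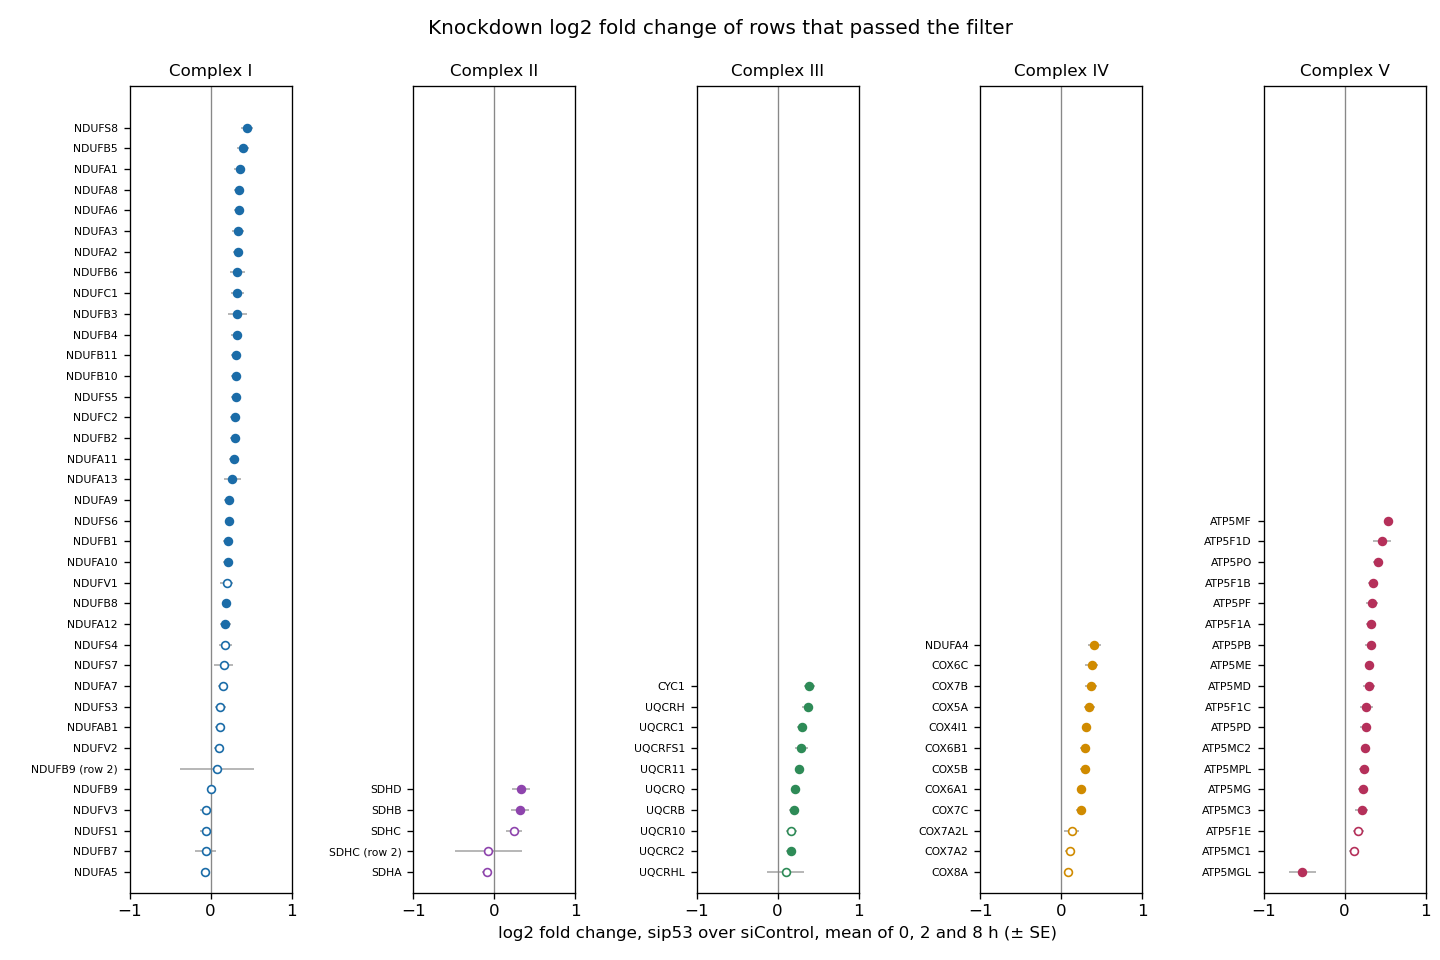
Log2 fold change of sip53 over siControl averaged over the 3 times, with its SE, for 82 of the 83 rows, sorted within complexes (filled, adjusted p under 0.05; open, not called). Filled dots right of 0 number 24 of the 37 rows drawn in complex I, 2 of 5 in II, 8 of 10 in III, 9 of 12 in IV and 15 of 18 in V, and the filled dot left of 0 is ATP5MGL.

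Complex IV, cytochrome c oxidase, is assembled around 3 catalytic subunits encoded in mitochondrial DNA, and all its members here are the surrounding nuclear-encoded subunits. With the knockdown 9 of 12 rows were higher and 0 lower, with a median of 0.29. COX4I1, the largest nuclear-encoded subunit, held 371, 332 and 329 CPM in siControl at 0 h, 404, 341 and 333 CPM at 2 h and 335, 371 and 378 CPM at 8 h. The sip53 values were 439, 426 and 452 CPM, 433, 430 and 469 CPM, and 423, 452 and 430 CPM. Every sip53 library was above every siControl library, and the log2 fold change was 0.31 ± 0.05 (adjusted p = 8.64e-05).

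COX7B ranged from 123 to 179 CPM in siControl (median 152) and from 184 to 228 CPM in sip53 (median 203), with a log2 fold change of 0.37 ± 0.07 (adjusted p = 0.000144). COX6C ranged from 370 to 730 CPM (median 619) and from 738 to 879 CPM (median 772), at 0.38 ± 0.08 (adjusted p = 0.000934), with its lowest value in siControl 0 h replicate 2 (0.31 without that library). Neither gene's arms overlapped, and the same held for COX4I1, COX6A1 and COX6B1. COX5B, whose protein binds zinc on the matrix side, ranged from 176 to 205 CPM and from 203 to 259 CPM, an overlap by 1 sip53 library, at 0.29 ± 0.06 (adjusted p = 0.000281). The 3 rows not called were COX8A (0.08 ± 0.05), COX7A2 (0.11 ± 0.06) and COX7A2L, a factor that joins complexes III and IV in supercomplexes (0.13 ± 0.09).

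Several complex IV subunits have a second isoform that other tissues or hypoxic cells use. These isoforms were at or near 0 in all groups. COX4I2, COX6A2, COX7A1 and COX7B2 had 0 counts in all 18 libraries, which allows a level of up to 0.398 CPM in the shallowest library (3 counts, counting error only). COX6B2 had 4 counts and COX8C 2 counts in all. NDUFA4L2, a hypoxia-inducible paralog of NDUFA4, had 37 counts in all and lay between 0.114 and 0.489 CPM in siControl and between 0 and 0.642 CPM in sip53 libraries. It did not pass the filter and was not tested.

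Complex III, which passes electrons from ubiquinol to cytochrome c, had 8 of 10 rows higher, 0 lower and a median of 0.24. Its catalytic nuclear-encoded subunits were both among them. CYC1, cytochrome c1, held 124, 92.3 and 90.9 CPM in siControl at 0 h, 118, 94.2 and 96.3 CPM at 2 h and 101, 108 and 103 CPM at 8 h. In sip53 it held 129, 126 and 151 CPM, 132, 151 and 141 CPM, and 117, 136 and 131 CPM. Replicate 1 of siControl was the high library at 0 h and 2 h, and with it the arms overlapped between 117 and 124 CPM. The log2 fold change of CYC1 was 0.39 ± 0.07 (adjusted p = 0.000167), and that of UQCRFS1, the Rieske iron-sulfur protein, was 0.29 ± 0.08 (adjusted p = 0.00492).

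UQCRC1, a core protein of complex III, ranged from 49.4 to 62.5 CPM in siControl (median 59.0) and from 64.0 to 79.7 CPM in sip53 (median 70.6), without overlap, at 0.30 ± 0.06 (adjusted p = 0.000255). UQCRH, the hinge protein that sits at cytochrome c1, ranged from 289 to 482 CPM (median 393) and from 461 to 536 CPM (median 513), at 0.37 ± 0.07 (adjusted p = 0.000278). Its intronless copy UQCRHL had 1.10 to 4.40 against 1.18 to 4.71 CPM and was not called (0.10 ± 0.23), with the same uncertainty over shared reads. UQCRB, the member of complex III with the most counts, was at 0.20 ± 0.06 (adjusted p = 0.0127) and lost its call over 2 h and 8 h only (0.0786). UQCR10, at 0.17 ± 0.07, was not called (adjusted p = 0.0502).

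Complex I, the NADH dehydrogenase, had 24 of 38 rows higher, 0 lower and a median of 0.23. Of the 7 nuclear-encoded core subunits, which carry the flavin and the iron-sulfur clusters or line the quinone site, 1 was higher (NDUFS8; 14.3%, beside 16.1% of all genes), with a median of 0.12. Of the 31 rows of supernumerary subunits, which surround the core, 23 were higher (74.2%), with a median of 0.29. Under the 26 other settings run the core had 1 to 2 rows higher and the supernumerary rows 18 to 26. The difference between these groups was not tested. Median transcript length was 643 bases for core and 672 bases for supernumerary rows.

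NDUFS8, a core subunit that holds iron-sulfur clusters near the quinone site (ENSG00000110717, chromosome 11, 68030617 to 68036644), held 117, 146 and 112 CPM in siControl at 0 h, 117, 104 and 103 CPM at 2 h and 117, 121 and 116 CPM at 8 h. With sip53 the values were 127, 166 and 172 CPM, 160, 166 and 196 CPM, and 154, 149 and 151 CPM. The groups overlapped at 0 h through siControl replicate 2 and sip53 replicate 1, and did not overlap at 2 h or 8 h. Its log2 fold change was 0.45 ± 0.07 on average (adjusted p = 2.67e-05) and 0.69 ± 0.12 at 2 h (adjusted p = 0.000916). Other core subunits were at 0.20 ± 0.08 (NDUFV1, the flavin-binding subunit, adjusted p = 0.0726), 0.16 ± 0.12 (NDUFS7), 0.12 ± 0.07 (NDUFS3), 0.10 ± 0.06 (NDUFV2) and -0.06 ± 0.07 (NDUFS1, the largest core subunit).

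Among supernumerary subunits NDUFA2 ranged from 118 to 149 CPM in siControl (median 129) and from 154 to 176 CPM in sip53 (median 166), without overlap, at 0.34 ± 0.06 (adjusted p = 9.67e-05). NDUFB5 ranged from 42.2 to 73.0 CPM (median 61.0) and from 70.0 to 94.5 CPM (median 81.9), at 0.40 ± 0.07 (adjusted p = 0.000163). The arms of NDUFB2 and NDUFC2 did not overlap either. NDUFB9 was the subunit of complex I with the most counts and its arms overlapped: it ranged from 513 to 615 CPM in siControl and from 505 to 599 CPM in sip53, at 0.01 ± 0.05 (adjusted p = 0.872). The others not called were NDUFA5 (-0.07 ± 0.05), NDUFA7, NDUFAB1 (the mitochondrial acyl carrier protein), NDUFB7, NDUFS4, NDUFV3 (-0.06 ± 0.07) and a second row of NDUFB9 with 146 counts in all. The calls of NDUFA12, NDUFA13 and NDUFB3 (adjusted p = 0.0413, 0.035 and 0.0372) were kept in 9, 10 and 11 of 18 fits that left out a library.

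Complex II, succinate dehydrogenase, joins the citric acid cycle to the chain and had 2 of 5 rows higher and 0 lower, with a median of 0.25. SDHA, the catalytic flavoprotein (ENSG00000073578, chromosome 5, 218241 to 256700), held 137, 143 and 129 CPM in siControl at 0 h, 144, 130 and 141 CPM at 2 h and 126, 121 and 141 CPM at 8 h. In sip53 it held 121, 128 and 150 CPM, 131, 128 and 127 CPM, and 118, 113 and 123 CPM. The arms overlapped throughout, and the log2 fold change was -0.09 ± 0.06 (adjusted p = 0.207). SDHB, the iron-sulfur subunit, was at 0.32 ± 0.11 (adjusted p = 0.0264), with 15.8 to 40.1 CPM in siControl and 29.3 to 47.0 CPM in sip53. SDHD, a membrane anchor subunit, was at 0.33 ± 0.11 (adjusted p = 0.0293). Both calls were kept in 15 of 18 fits without a library and were lost over 2 h and 8 h only (adjusted p = 0.172 and 0.246). SDHC, the other anchor, was at 0.25 ± 0.10 (adjusted p = 0.0552), and its second row, with 200 counts in all, at -0.07 ± 0.41.

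**Figure D3:**
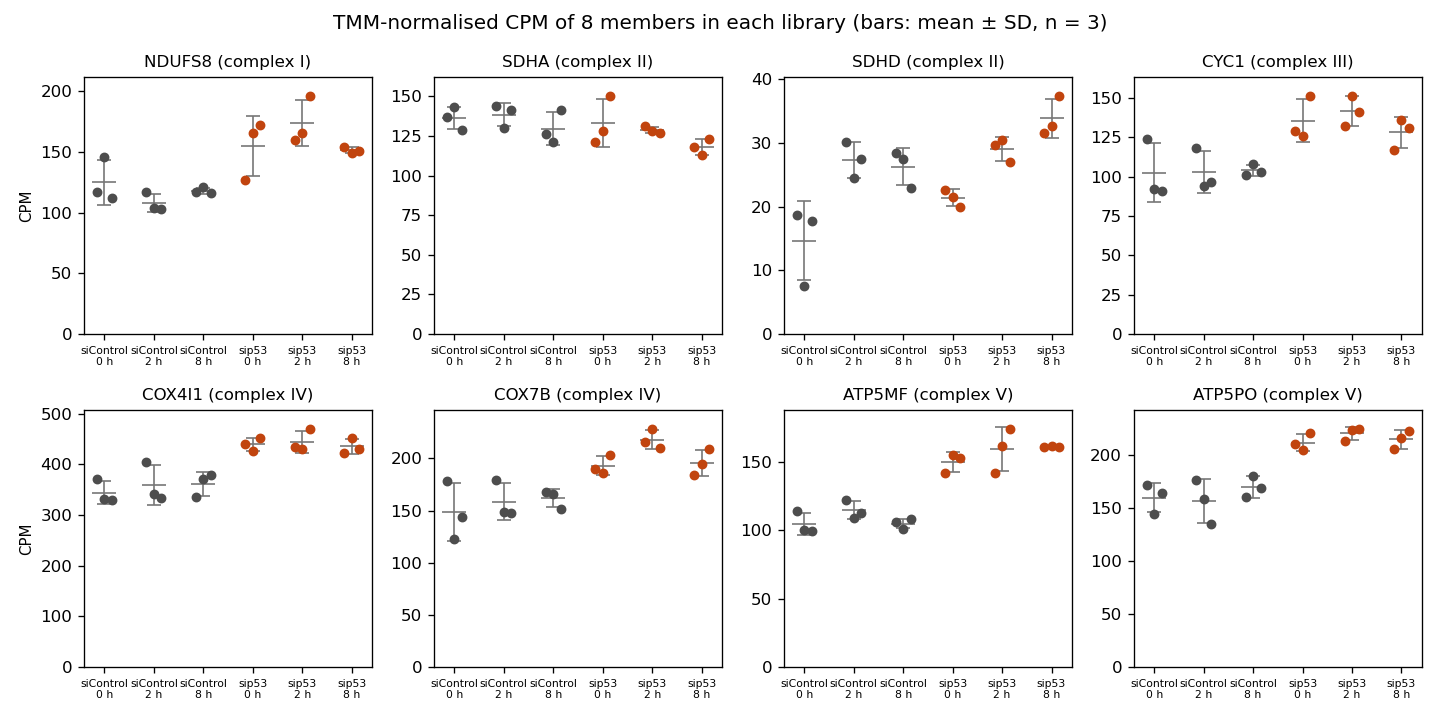
TMM-normalised CPM of 8 members in each of the 18 libraries (grey, siControl; orange, sip53; bars, group mean ± SD, n = 3; axes start at 0). For COX4I1, COX7B, ATP5MF and ATP5PO every orange dot lies above every grey dot, SDHA overlaps throughout, and SDHD has its lowest value, 7.57 CPM, in siControl 0 h replicate 2.

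Over both arms as wholes, 13 members had all 9 sip53 libraries above all 9 siControl libraries (15.7%, beside 1.56% of all genes). They were NDUFA2, NDUFB2 and NDUFC2 in complex I, UQCRC1 in complex III, COX4I1, COX6A1, COX6B1, COX6C and COX7B in complex IV, and ATP5F1B, ATP5ME, ATP5MF and ATP5PO in complex V. None came from complex II. By time, 2 members were called at all 3 times, 16 at 2 times, 20 at 1 time and 45 at none. The same count was not made over all genes tested, so it does not show whether repeated calls were more frequent among members. The 3 times were also called from a shared fit. The 58 rows called on average had a median transcript length of 635 bases, a GC content of 48.2% and a median level of 171 CPM, and the other 25 had 732 bases, 48.8% and 95.0 CPM. The 83 rows as a whole had shorter transcripts than all genes tested (median 672 against 972 bases) and a higher median level (139 against 16.8 CPM).

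E2 is the main ligand of the estrogen receptors, and the next comparisons asked how the same rows moved with it in each arm. They moved little. In siControl 0 members were higher and 0 lower at 2 h by edgeR, beside 0.228% of all genes higher and 0 lower; DESeq2 called 3 higher, beside 0.735% of all genes, and 16 had an unadjusted p under 0.05 (19.3%, beside 11.4% of all genes). At 8 h 1 was higher and 0 lower, beside 1.78% and 0.823% of all genes; DESeq2 called 2 higher, beside 2.67%, and 12 had an unadjusted p under 0.05 (14.5%, beside 16.9%). In sip53 0 were called in either direction at 2 h, beside 0.268% of all genes higher and 0.0392% lower; DESeq2 called 0, and 3 had an unadjusted p under 0.05 (3.61%, beside 7.44%). At 8 h in sip53 0 were called, beside 1.55% of all genes higher and 1.18% lower; DESeq2 called 1 higher, beside 2.31%, and 6 had an unadjusted p under 0.05 (7.23%, beside 14.3%). The member medians at 2 h and 8 h were 0.07 and 0.07 in siControl and 0.07 and 0.02 in sip53. Values above 0 numbered 57 and 56 of the 83 rows in siControl, and 68 and 45 in sip53. Of all 15318 genes, 7517 and 7636 lay above 0 in siControl, and 7476 and 7513 in sip53. The shift was thus small but mostly upward, except at 8 h in sip53. In siControl it rests in part on 0 h replicate 2, where the member median was lowest (-0.177, beside 0.131 and -0.061 in 0 h replicates 1 and 3). The E2 medians and the numbers of values above 0 were not computed without that library. The comparisons of an arm share its 0 h libraries, and those at 1 time share libraries with the knockdown comparisons.

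SDHD was the member called with E2 (ENSG00000204370, chromosome 11, 112086773 to 112120013). In siControl it held 18.6, 7.57 and 17.8 CPM at 0 h, 30.1, 24.4 and 27.5 CPM at 2 h and 28.4, 27.5 and 22.9 CPM at 8 h. In sip53 it held 22.6, 21.5 and 20 CPM, 29.6, 30.5 and 27.0 CPM, and 31.6, 32.6 and 37.3 CPM. In both arms every library with E2, at 2 h and at 8 h, lay above every library without it. SDHD was picked by its call on these same values. Such an upward separation held for 10 and 9 of the 83 members in siControl at 2 h and 8 h. In sip53 it held for 18 and 12. The downward separation held for 2 and 2 members in siControl, and for 0 and 7 in sip53. The same count was not made over all genes tested for E2, so the separation does not set SDHD apart. The log2 fold change of SDHD at 8 h was 0.83 ± 0.20 in siControl (adjusted p = 0.028) and 0.66 ± 0.20 in sip53 (adjusted p = 0.0738). At 2 h it was 0.89 ± 0.20 in siControl (adjusted p = 0.07) and 0.44 ± 0.20 in sip53 (adjusted p = 0.638). The siControl call at 8 h was lost without siControl 0 h replicate 2, which held the lowest value (0.528, adjusted p = 0.0797), without siControl 8 h replicate 1 (adjusted p = 0.0939) or 2 (0.105), and in a fit to only the groups compared (0.189). At 2 h the siControl value was 0.59 without siControl 0 h replicate 2 (adjusted p = 0.174).

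NDUFC1, a supernumerary subunit of complex I, came nearest to a call in siControl among the other members, at 0.58 ± 0.13 at 2 h (adjusted p = 0.07) and 0.48 ± 0.13 at 8 h (adjusted p = 0.0552; 0.50 and 0.39 without siControl 0 h replicate 2), and was at 0.28 ± 0.13 and 0.36 ± 0.13 in sip53. UQCRHL, a low-count row with uncertain shared reads, had larger values without a call: 1.15 and 0.91 in siControl, 0.96 and 0.71 in sip53. NDUFB7, another supernumerary subunit, had the lowest value of the main rows, at -0.69 ± 0.22 at 8 h in sip53 (adjusted p = 0.101), where it held 45.9 ± 4.05 CPM against 73.8 ± 12.7 CPM at 0 h (SD, n = 3 each). Whether E2 acted differently in the 2 arms was tested with an interaction contrast. It passed the threshold for 0 members at 2 h and 0 at 8 h, beside 0 genes in all at either time (edgeR); DESeq2 called 0 members at both, and 2 and 1 members had an unadjusted p under 0.05 (2.41% and 1.2%, beside 2.94% and 3.81% of all genes). For SDHD it was -0.44 ± 0.28 at 2 h and -0.17 ± 0.28 at 8 h, and -0.16 and 0.12 without siControl 0 h replicate 2.

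**Figure D4:**
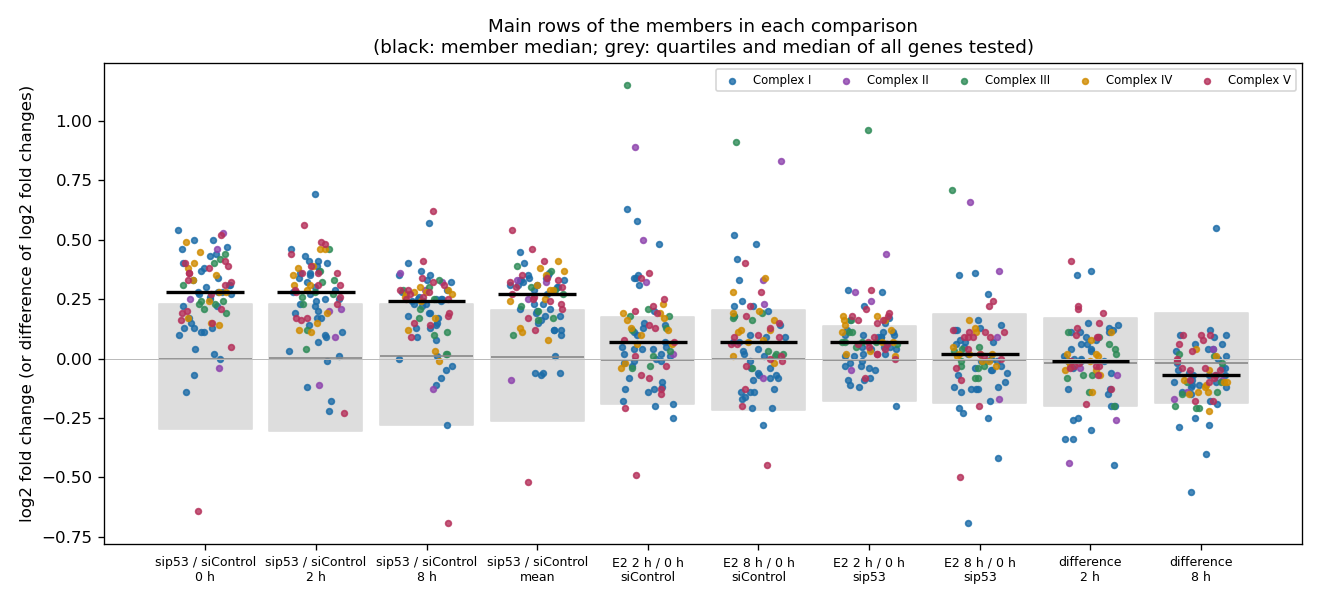
Log2 fold change of each member gene (1 dot per gene, coloured by complex, main row only) in the 4 knockdown comparisons, the 4 E2 comparisons and the 2 differences of E2 response (sip53 minus siControl). Black bars mark member medians and grey boxes the quartiles of all genes tested: the black bars stand above the grey boxes in the knockdown comparisons and within them in the E2 comparisons and the differences.

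The promoters of these genes are known to hold sites for nuclear respiratory factor 1 (NRF1), for ETS factors such as GABP, and for YY1. The RefSeq table (GRCh38.p14) gave 79 promoters, each from 250 bases before to 50 bases after a start, for 66 of the tested genes, some with more than 1 start and overlapping windows. All motifs were searched on both strands. The NRF1 motif, GCGCA and GCGC with any 1 base between them, stood in 16 of the 79 (20.3%) and in 5.78% of all 35116 promoters of that length. The ETS motif CCGGAAGT stood in 12 (15.2%, against 4.14%), and the YY1 motif AAGATGGC in 13 (16.5%, against 2.89%). The SP1 motif GGGGCGGG (15, 19% against 22.6%) and CCAAT (25, 31.6% against 34.6%) were near the share of all promoters. The estrogen response element, GGTCA and TGACC with any 3 bases between them, stood in 0 member promoters and in 0.057% of all. The motif of the nuclear receptor ESRRA, TCAAGGTCA, stood in 1 (1.27%, against 0.353%). Among promoters of members called higher with the knockdown 14 of 56 held the NRF1 motif, 10 the ETS, 10 the YY1, 12 the SP1 and 16 the CCAAT motif. Among the other 23 these numbers were 2, 2, 3, 3 and 9, and the difference was not tested.

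The 250 bases before the start are shown for 4 members called higher (ATP5PO and UQCRC1 with an NRF1 motif, UQCRH and COX5B with an ETS motif), for SDHD, the member called with E2, and for SDHA, which was not called. Capitals mark NRF1 and ETS motif matches on either strand, and each sequence reads 5′ to 3′ on the gene's own strand. A match of letters is a description and not a bound site.
ATP5PO (chr21:33915805-33916054, minus strand): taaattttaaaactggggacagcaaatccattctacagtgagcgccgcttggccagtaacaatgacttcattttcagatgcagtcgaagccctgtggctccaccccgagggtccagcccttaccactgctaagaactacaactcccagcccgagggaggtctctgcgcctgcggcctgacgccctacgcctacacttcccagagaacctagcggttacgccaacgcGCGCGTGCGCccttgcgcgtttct
UQCRC1 (chr3:48609647-48609896, minus strand): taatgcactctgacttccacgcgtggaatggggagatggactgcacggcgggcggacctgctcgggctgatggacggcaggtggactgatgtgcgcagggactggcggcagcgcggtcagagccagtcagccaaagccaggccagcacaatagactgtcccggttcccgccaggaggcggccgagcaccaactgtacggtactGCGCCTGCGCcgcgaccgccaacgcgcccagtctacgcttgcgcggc
UQCRH (chr1:46303448-46303697, plus strand): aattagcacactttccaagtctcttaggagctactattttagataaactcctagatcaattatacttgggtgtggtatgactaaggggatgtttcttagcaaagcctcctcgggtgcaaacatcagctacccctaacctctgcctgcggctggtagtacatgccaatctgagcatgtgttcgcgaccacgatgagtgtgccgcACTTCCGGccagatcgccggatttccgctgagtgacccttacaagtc
COX5B (chr2:97645812-97646061, plus strand): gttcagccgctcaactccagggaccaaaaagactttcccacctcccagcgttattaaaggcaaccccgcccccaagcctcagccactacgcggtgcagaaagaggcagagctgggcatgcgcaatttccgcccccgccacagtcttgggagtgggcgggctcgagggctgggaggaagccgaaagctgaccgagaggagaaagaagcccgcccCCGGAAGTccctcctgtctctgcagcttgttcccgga
SDHD (chr11:112086623-112086872, plus strand): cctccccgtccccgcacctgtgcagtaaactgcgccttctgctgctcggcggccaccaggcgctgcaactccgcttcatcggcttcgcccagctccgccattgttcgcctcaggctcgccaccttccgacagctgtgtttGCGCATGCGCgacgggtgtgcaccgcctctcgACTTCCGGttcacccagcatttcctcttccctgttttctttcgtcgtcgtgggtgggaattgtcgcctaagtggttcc
SDHA (chr5:218070-218319, plus strand): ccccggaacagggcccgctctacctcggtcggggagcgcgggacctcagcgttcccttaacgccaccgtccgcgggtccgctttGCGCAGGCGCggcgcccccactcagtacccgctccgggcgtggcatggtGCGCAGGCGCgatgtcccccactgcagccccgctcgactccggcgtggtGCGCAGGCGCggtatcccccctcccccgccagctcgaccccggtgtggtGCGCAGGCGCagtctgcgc
The SDHA window holds 4 NRF1 motifs, at 166, 117, 68 and 19 bases before the start, and the ATP5PO, UQCRC1 and SDHD windows hold theirs at 24, 47 and 110 bases before it. The ETS motifs of UQCRH, COX5B and SDHD begin 47, 37 and 78 bases before the start.

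Of the transcripts of factors for the NRF1, ETS and YY1 motifs, YY1 was called and NRF1 and GABPA were not. ESR1, an estrogen receptor gene, was higher in sip53 (0.44 ± 0.07, adjusted p = 3.68e-05). It was called at 0, 2 and 8 h (0.51, 0.37 and 0.44), and its part in the E2 comparisons was not tested. In the wider list of regulators of mitochondrial biogenesis 2 of 15 were higher with the knockdown and 2 lower (13.3% each, beside 16.1% and 18.5% of all genes), with a median of -0.01. ESRRA, an orphan nuclear receptor that activates oxidative genes, was higher (0.31 ± 0.07, adjusted p = 0.00148) and so was POLRMT, the mitochondrial RNA polymerase (0.42 ± 0.12, adjusted p = 0.00875). YY1 was lower (-0.29 ± 0.07, adjusted p = 0.00411) and so was TFAM, which packages mitochondrial DNA (-0.32 ± 0.10, adjusted p = 0.0143). The calls of ESRRA, POLRMT and TFAM were lost when the length and GC trend was removed, with log2 values of 0.16, 0.26 and -0.14, while that of YY1 was kept in all 26 other settings. NRF1 (0.12 ± 0.12), GABPA (-0.06 ± 0.17) and the coactivator PPARGC1B (-0.04 ± 0.10) were not called.

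Other mitochondrial gene lists set beside the subunits gave lower shares of calls in this comparison, where 16.1% of all genes were higher and 18.5% lower. Of complex I assembly factors 5 of 19 were higher and 0 lower, led by TMEM186 (0.41 ± 0.09) and TMEM70 (0.33 ± 0.09). Of complex IV assembly factors 11 of 25 were higher, led by HIGD2A (0.33 ± 0.06) and COX18 (0.46 ± 0.09), and COX19 was lower (-0.24 ± 0.08). Of those of complexes II, III and V 2 of 14 were higher, SDHAF2 (0.34 ± 0.06) and LYRM7 (0.19 ± 0.06), a share of 14.3% that was near that of all genes. Mobile carriers and exchange proteins had 6 of 16 higher, among them the phosphate carrier SLC25A3 (0.41 ± 0.07) and the adenine nucleotide carrier SLC25A6 (0.36 ± 0.06). The citric acid cycle had 10 of 19 higher and 1 lower, with citrate synthase CS at 0.35 ± 0.05 and SUCLG2 at -0.27 ± 0.09. The calls of COX19 and SUCLG2 were lost without 9 and 7 single libraries, and further that of SUCLG2 with no filter or once the length and GC trend was removed (-0.09) and that of COX19 over 2 h and 8 h only.

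Protein import genes had 12 of 23 higher and 4 lower, beside 16.1% and 18.5% of all genes. The share of lower calls was near that of all genes. The outer-membrane subunits TOMM20 (0.46 ± 0.06), TOMM5, TOMM6 and TOMM7 were among the higher ones. The 4 lower ones were TIMM44 (-0.50 ± 0.08) and HSPA9 (-0.36 ± 0.07), which belong to the import motor, its cofactor GRPEL1, and HSPD1, a matrix chaperonin. HSPE1, the co-chaperonin of HSPD1, was higher (0.34, adjusted p = 0.00625) and is named after its value was seen. With the length and GC trend removed HSPD1 (-0.12) and GRPEL1 were no longer called, and the GRPEL1 call was also lost without 12 single libraries and over 2 h and 8 h only. Mitochondrial ribosomal proteins had 15 of 75 higher (20%, beside 16.1% of all genes) and 9 lower (beside 18.5% of all genes), with 58 above 0 and a median of 0.18. MRPS27 was at 0.46 ± 0.05 and MRPL1 at -0.91 ± 0.15. Outside mitochondria, the cytosolic ribosome had 67 of 78 rows higher and 0 lower, with a median of 0.32, and 16 of 36 proteasome subunits were higher and 4 lower. The upward shift was therefore measured in the cytosolic ribosome list too, and nothing particular to the respiratory chain was tested.

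**Figure D5:**
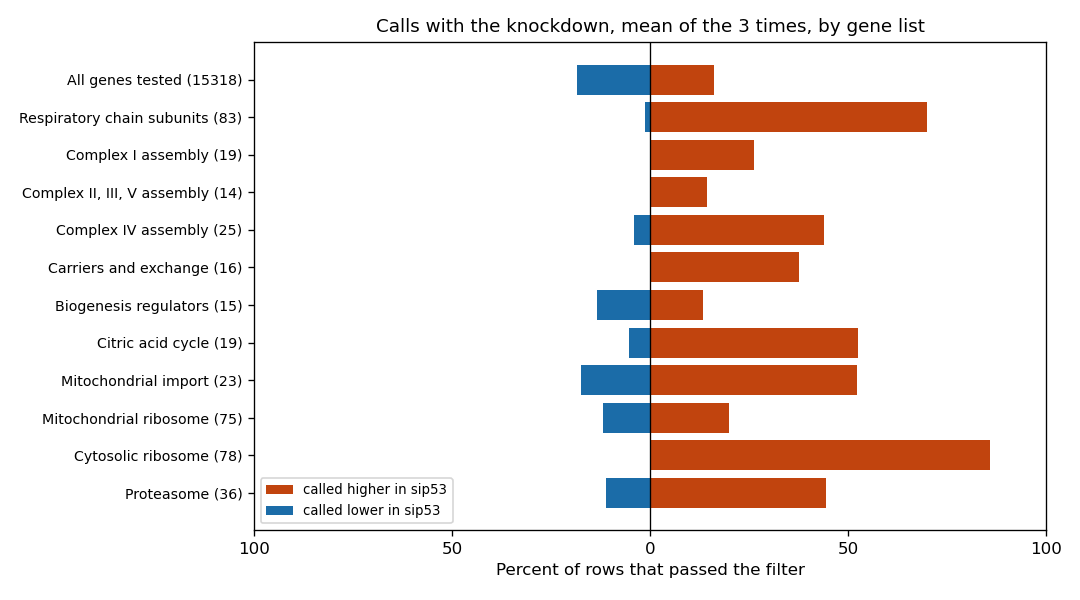
Percent of tested rows of each list called higher (orange, right) or lower (blue, left) in sip53 averaged over the 3 times, with the number of rows in brackets. The bar of respiratory chain subunits (58 of 83 higher, 1 lower) and that of the cytosolic ribosome (67 of 78 higher) are the longest to the right, beside 16.1% higher over all genes tested.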

How the data were processed

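Libraries were made from total RNA of the 18 samples with a 3′ mRNA kit, which counts transcript ends. The values are RSEM expected counts per gene deposited by the authors; the tools are RSEM 1.3.3 and, without versions, Bowtie2, MultiQC and cutadapt, on build hg19, per the submitters' processing notes; their settings are not given in the sources used here. Rows were named through GENCODE v29 (GRCh38): 52673 of 57736 held transcripts of a single gene, and unnamed rows held 0.635% of counts. Coordinates are GRCh38, and reads shared by near-identical genes may be split by the counting. The deposited expected counts were whole numbers, so rounding moved none.

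In R 4.3.3, edgeR 4.0.16 (filterByExpr, minimum count 10; TMM; glmQLFit and glmQLFTest) was fitted to 15318 genes with 1 coefficient per group and 12 residual degrees of freedom. A gene was called at a Benjamini-Hochberg adjusted p under 0.05 over all genes tested. CPM are TMM-normalised, log2 fold changes carry a standard error (SE), and an average over the times weights each equally. The biological coefficient of variation was 15.2%. Alternatives were DESeq2 1.42.0, other scalings and filters, a replicate block, removal of a length and GC trend, only the groups compared, and leaving out each library.

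The members and gene lists were chosen with earlier results of these data known. Named in full were, per complex, the 3 members (2 in complex II) with the smallest adjusted p for the knockdown average, the one with the most counts, members called lower or with E2, and the alternative isoforms; per list, up to 4 called genes a direction with the smallest adjusted p. Other members are given by value. The gene targeted by the siRNA and single values of 1 member, which enters the counts and medians, are not reported here. Promoters come from RefSeq (GRCh38.p14), and 150 non-coding or pseudogene rows of the same families (7520 counts) were left out.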

Additional observations from a re-analysis of the deposited data

How the results depend on the processing

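The number of members higher with the knockdown averaged over the times was 58 and ranged from 46 to 65 over the other settings, and their median log2 fold change ranged from 0.244 to 0.308. Over all genes the share higher was 16.1% and ranged from 9.58% to 19.2%. The lower call, ATP5MGL, went to 0 with the length and GC trend removed, over 2 h and 8 h only, and without either of 2 libraries (range 0 to 1 when a library was left out). At 0 h the 23 higher calls became 1 in a fit to only the groups compared and ranged from 2 to 46 without single libraries, and the median, 0.277, ranged from 0.208 to 0.392. The all-gene share higher was 3.98%, with 0.476% in that fit and 0.866% to 6.7% without single libraries. At 2 h the 30 calls ranged from 5 to 35 without single libraries, beside 1.43% to 5.02% of all genes. At 8 h the 5 calls became 16 with upper-quartile scaling, 10 with no filter, 18 with the length and GC trend removed, 12 with only the groups compared and 17 with DESeq2, and ranged from 1 to 3 without single libraries. All genes went from 2.81% higher to 4.03%, 2.02%, 4%, 3.29% and 4.97% in these 5 settings, and to 0.988% to 2.62% without single libraries. With E2 in siControl at 2 h the 0 higher calls became 4 with no filter, 2 with the length and GC trend removed and 3 with DESeq2 (SDHD and NDUFC1 in each), and ranged from 0 to 4 without single libraries, with 4 without siControl 0 h replicate 1. All genes went from 0.228% higher to 0.625%, 0.339% and 0.735% in these settings, and to 0.714% without that replicate. At 8 h the 1 higher call became 4, 2 and 2 in the same settings and 0 with only the groups compared, and ranged from 0 to 7, with 7 without siControl 0 h replicate 1. All genes went from 1.78% higher to 1.72%, 2.13% and 2.67%, to 0.641% with only the groups compared, and to 2.82% without that replicate. In sip53 at 8 h the 0 higher calls became 1, SDHD, in 4 settings (DESeq2, no filter, only the groups compared, length and GC trend removed), and the 0 lower calls became 2 with no filter (NDUFB7 and NDUFA13) and 1 with only the groups compared (NDUFB7). In those 4 settings 2.31%, 1.43%, 1.29% and 1.76% of all genes were higher, beside 1.55% in the main fit. Lower were 327 of 26224 genes with no filter and 86 of 14255 with only the groups compared, beside 181 of 15318 in the main fit. The cause of these changes was not tested; without single libraries fewer samples enter.

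Deviations of same-numbered samples from their group means were little correlated (median 0.012 over 45 pairs, from -0.145 to 0.209, and -0.00333 for other pairs). The labels do not say whether same-numbered samples were handled together, and weak correlations in groups of 3 cannot settle it. With the replicate block 60 members were higher in the average, 22, 28 and 3 at 0, 2 and 8 h, and 1 was lower with E2 in sip53 at 8 h (NDUFB7). Of all genes 16.1% were higher in the average with this block, and 4.05%, 4.46% and 2.82% at 0, 2 and 8 h. With E2 in sip53 at 8 h, 190 of 15318 genes were lower with this block.

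Values near 0 changed sign in some settings: NDUFB9 was at 0 without siControl 8 h replicate 1, -0.011 without sip53 8 h replicate 2 (from -0.011 to 0.032 without single libraries) and -0.001 over 2 h and 8 h only, and NDUFS1 and NDUFA5 were at 0.11 and 0.12 once the length and GC trend was removed. Of 20 members followed through all 26 other settings of the average, 15 kept their direction and side of the threshold in each. The exceptions were ATP5MGL, SDHB and SDHD (lost in 4), UQCRB (lost in 1) and NDUFB9. Members below about 3 CPM (the second rows of NDUFB9 and SDHC, and UQCRHL) had SEs of 0.23 to 0.46, too wide to show a shift of that size.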
